A study of Mus musculus with 4 samples.

Results

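RBPJ is the DNA-binding protein of the Notch pathway, and the genes described here encode it together with its paralogue and 7 of its cofactors: the DNA-binding factors Rbpj and Rbpjl, the coactivators Maml1, Maml2, Maml3 and Ep300, and the corepressors Spen, Kdm5a and L3mbtl3. Every array probe for genes whose RefSeq accession belongs to 1 of these 9 symbols was taken, which gave 13 of 39429 probes and 9 of 32496 probe targets. Of the genes, 6 had 1 probe and 3 had several, each probe on 1 spot of an array. RNA came from CD11c+ dendritic cells grown from bone marrow (BMDC) of female C57BL/6 mice, 8 weeks old, during 6 days in 20 ng/mL GM-CSF. The Rbpj-deficient cells, RFF11, were Rbpj fl/fl and carried CD11c-cre, a recombinase driven by the promoter of Itgax, the gene for CD11c. The control cells, RFF, were Rbpj fl/fl without the recombinase, so both groups carried the loxP-flanked alleles. No array held cells with CD11c-cre and an unflanked Rbpj, so the recombinase and the loss of Rbpj cannot be told apart. Each genotype had 2 arrays, with RNA pooled from 4 mice per genotype. The labels do not say whether these 2 arrays came from separate pools. The p-values therefore rest on a spread between arrays that could be technical.

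In a cell without Notch signal, RBPJ sits on its DNA sites with corepressors such as SPEN, KDM5A and L3MBTL3. A cleaved Notch receptor displaces these partners and, with a Mastermind protein (the Maml genes), forms a complex that recruits the acetyltransferase EP300 and turns the target genes on. In dendritic cells of the mouse, RBPJ and NOTCH2 are known for their part in the upkeep of a conventional subset in the spleen. RBPJL resembles RBPJ but does not act through Notch, and is known with PTF1A in the acinar cells of the pancreas.

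Of the gene spots on each array, 57.7 to 58.4% were well above background in RFF11 cells and 55.2 to 58.1% in RFF cells, by the scanner software's flag. All 4 arrays lay on 1 slide, where array position and genotype cannot be told apart. Levels below are log2 signal minus the 75th percentile of the array, so a level of 0 equals that percentile, and a change is the mean level in RFF11 minus that in RFF. Levels of different probes are not set against each other, as probes differ in how brightly they bind. Itgax, whose product was used to isolate the cells, read 6.65 and 6.45 in RFF11 cells and 6.69 and 6.63 in RFF cells (change -0.11, limma adjusted p = 0.523). All 13 dendritic cell markers with a named probe, among them Flt3, Cd74 and H2-Ab1, were well above background on every array.

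Rbpj fell in RFF11 cells, while the coactivator Maml3 and the corepressor L3mbtl3 rose. The change was -1.25 for Rbpj (SE 0.06), 0.72 for Maml3 (SE 0.06) and 0.64 for L3mbtl3 (SE 0.06), with limma adjusted p = 0.0278, 0.0379 and 0.0393 in that order, adjusted over all 17967 genes tested. The other 6 genes did not pass the threshold of 0.05, and their changes ran between -0.01 and 0.40. With Rbpj counted, 3 of 9 passed, against 1.88% of all genes tested. Leaving Rbpj aside, 2 of 8 rose, against 1.04% of all genes, and 0 fell, against 0.84%. The genes were gathered with the changes of Maml3 and L3mbtl3 already known, so these shares are not independent evidence. Of the 9 changes, 7 were above 0, with a median of 0.19, against -0.01 over all genes tested. The 7 include Rbpjl, which entered the test through the RFF11 arrays alone. With a filter on all 4 arrays, which Rbpjl did not pass, the median over 8 genes was 0.18. With any 1 array left out these calls were lost, as were nearly all calls over the array. Changes then ran from -1.29 to -1.21 for Rbpj, 0.69 to 0.76 for Maml3 and 0.60 to 0.69 for L3mbtl3. The calls were also lost without the filter on dim probes, where 0 of all 32494 genes tested passed. The limma adjusted p was then 0.26, 0.26 and 0.272 for the same 3 genes.

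**Figure D1:**
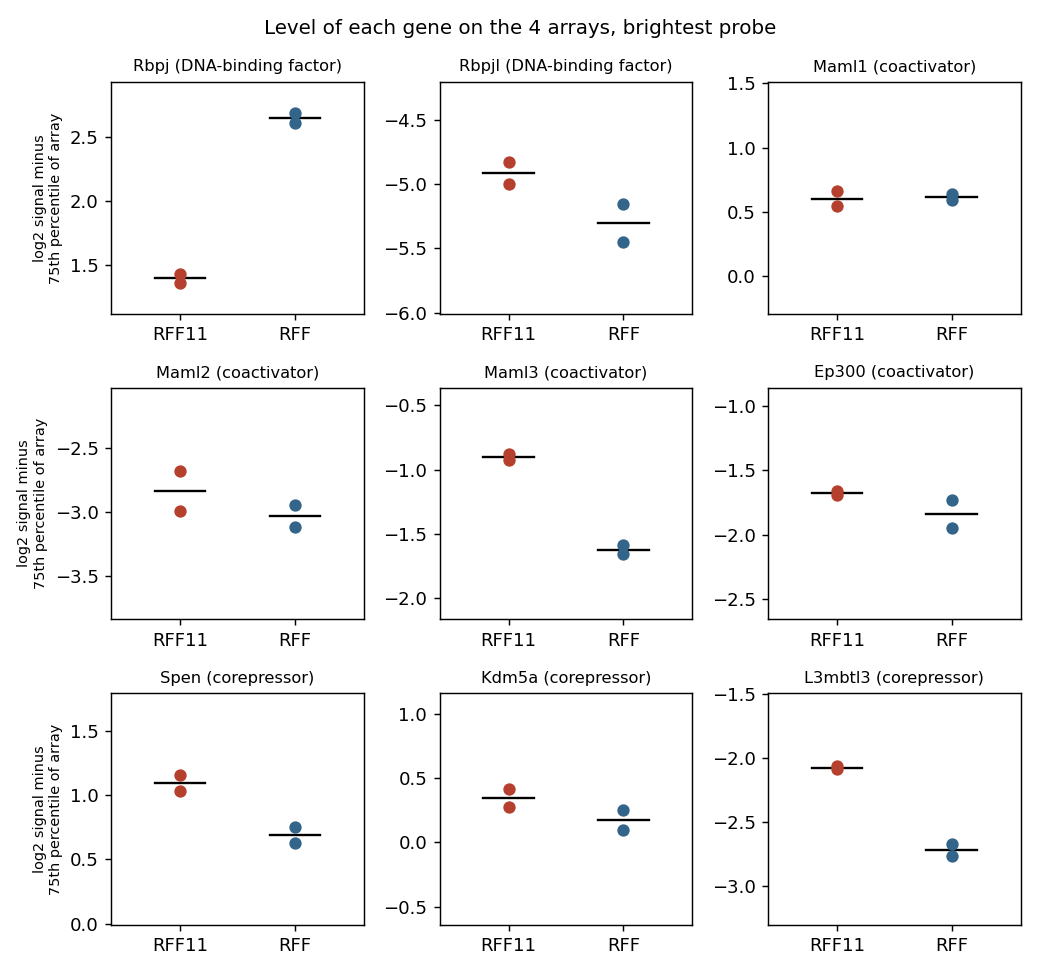
Level (log2 signal minus the 75th percentile of the array) of the brightest probe of each gene, with RFF11 arrays in red at the left, RFF arrays in blue at the right and a bar at the mean of 2 arrays. Every panel spans the same height in log2 units; Rbpj stands lower on both RFF11 arrays (1.37 and 1.44, against 2.69 and 2.61), and Maml3, L3mbtl3, Spen, Kdm5a, Ep300 and Rbpjl stand higher on both.

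RBPJ binds DNA at a core of the letters TGGGAA, so the stretches before the start sites of the 3 genes that passed are shown, with each copy of the core on either strand (TGGGAA or its reverse complement TTCCCA) in capitals. The sequences are RefSeq's, on GRCm38.p6, 250 bases before an annotated start, read along the gene's own strand.
Rbpj, chr5:53590096-53590345, + strand: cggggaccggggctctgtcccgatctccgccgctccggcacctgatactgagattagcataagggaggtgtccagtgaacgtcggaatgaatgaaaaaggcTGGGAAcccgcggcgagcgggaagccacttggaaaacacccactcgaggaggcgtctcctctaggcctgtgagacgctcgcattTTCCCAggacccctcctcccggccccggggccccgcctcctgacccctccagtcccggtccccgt
Maml3, chr3:52105007-52105256, - strand: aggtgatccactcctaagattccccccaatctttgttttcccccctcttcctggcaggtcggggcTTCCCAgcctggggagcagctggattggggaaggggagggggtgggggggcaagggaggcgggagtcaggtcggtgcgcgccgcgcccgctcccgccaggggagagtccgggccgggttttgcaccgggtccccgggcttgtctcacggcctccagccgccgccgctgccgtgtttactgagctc
L3mbtl3, chr10:26375220-26375469, - strand: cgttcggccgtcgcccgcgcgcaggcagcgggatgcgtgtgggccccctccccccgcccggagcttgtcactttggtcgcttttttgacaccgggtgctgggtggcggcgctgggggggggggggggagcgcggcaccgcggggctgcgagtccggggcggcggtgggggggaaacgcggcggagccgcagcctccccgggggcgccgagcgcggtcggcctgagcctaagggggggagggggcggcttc
The window of Rbpj held 2 copies, starting 149 and 65 bases before the start. Its other annotated window overlaps it and held 1, the nearer of these copies. The window of Maml3 held 1 copy, 185 bases before the start, and neither of the 2 windows of L3mbtl3 held any. Over the family, promoter sequences were at hand for 8 of 9 genes, with none for Kdm5a. These 8 had 11 windows, of which 6 held TGGGAA, against 21.6% of all 32851 windows of that length. The 6 include both overlapping windows of Rbpj, which share a copy, and counted by gene 5 of 8 held the core. The longer GTGGGAA, which contains the core, stood in 2 of the 11, those of Rbpjl and Spen, against 5.42% of all windows. A match describes the letters and does not show that RBPJ is bound there, and the array does not measure which start site is used.

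Rbpj was read by 2 probes for the same accession, NM_009035. The brighter probe gave processed signals of 3711 and 3914 in RFF11 cells and 8839 and 8671 in RFF cells, or levels of 1.37 and 1.44 against 2.69 and 2.61. Both RFF11 arrays lay below both RFF arrays, as for 32.3% of all genes tested. The fall to 42.1% of the control signal ranked 66 of 17967 from the lowest change. The dimmer probe read -2.14 and -2.01 in RFF11 cells and -0.78 and -0.89 in RFF cells, a change of -1.24 (SE 0.08, limma adjusted p = 0.0321 over 22035 probes), and kept 42.3%. A bright and a dim probe thus gave nearly the same change, without overlap between genotypes on either. Of all probes tested singly, 1.73% passed. Where on the transcript the 2 probes lie was not analysed here, so a probe outside the deleted part would not register the deletion itself. In RNA from many cells, fewer cells with the gene and less RNA per cell cannot be told apart. RefSeq also lists 3 Rbpj pseudogenes, and whether the probes take up their RNA was not tested.

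Rbpjl, the paralogue, was near the limit of detection. It was well above background on 2 of 2 RFF11 arrays, at -5.00 and -4.83, and on 1 of 2 RFF arrays, at -5.45 and -5.15. The lowest level flagged well above background was -5.95 and -5.76 on the RFF11 arrays and -5.50 and -5.82 on the RFF arrays. The genotypes did not overlap, but the change of 0.39 did not pass (SE 0.13, 95% confidence interval 0.03 to 0.75, limma adjusted p = 0.188). It stood at 0.13 with normexp, a background correction with an added offset of 50 that shrinks dim changes. Without RFF replicate 1 the change was 0.24. Rbpjl entered the test through the RFF11 arrays alone.

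Among the coactivators, the 3 Mastermind genes differed in their values. Maml3 read -0.88 and -0.93 in RFF11 cells and -1.59 and -1.66 in RFF cells on its brightest probe, where arrays of a genotype differed by far less than the genotypes did. Its signal was 1.65-fold that of RFF cells, rank 404 from the highest change. The second probe read -4.34 and -4.21 in RFF11 cells against -4.40 and -4.80 in RFF cells, a change of 0.32 (SE 0.15, limma adjusted p = 0.3 over all probes). The third read -4.97 and -5.17 in RFF11 cells against -5.44 and -5.28 in RFF cells, a change of 0.29 (SE 0.11, adjusted p = 0.215), and was well above background on 1 of 2 RFF arrays. All 3 probes were higher on both RFF11 arrays than on either RFF array, and only the brightest passed. On their brightest probes, 26.8% of all genes tested were likewise higher. The third Maml3 probe entered the test through the RFF11 arrays alone, so the filter favoured its place among the 3 and in their mean. The mean of the 3 probes changed by 0.44 and did not pass (limma adjusted p = 0.0642). Whether the probes differ in their change was not tested.

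Maml1 read 0.66 and 0.54 in RFF11 cells and 0.59 and 0.64 in RFF cells. The genotypes overlapped, and the 95% confidence interval of the change, -0.20 to 0.17, leaves room for a shift of either sign smaller than that of Maml3 (change -0.01, limma adjusted p = 0.92). Maml2 read -2.68 and -2.99 in RFF11 cells and -2.94 and -3.11 in RFF cells on its brighter probe, with overlap and a change of 0.19 (95% confidence interval -0.18 to 0.56, limma adjusted p = 0.438). Without RFF11 replicate 1 the change of Maml2 was 0.039, and without RFF11 replicate 2 it was 0.35. Its dimmer probe read -5.30 and -5.51 in RFF11 cells and -5.25 and -5.80 in RFF cells, also with overlap, and was well above background on 1 of 2 RFF arrays. Maml2 is thus bounded less tightly than Maml1. Ep300, the histone acetyltransferase that the complex recruits, read -1.66 and -1.69 in RFF11 cells and -1.73 and -1.95 in RFF cells. Both RFF11 arrays were higher, by an amount within the error of the fit (change 0.16, 95% confidence interval -0.09 to 0.42, limma adjusted p = 0.354). The change was 0.056 without RFF replicate 2 and 0.27 without RFF replicate 1.

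**Figure D2:**
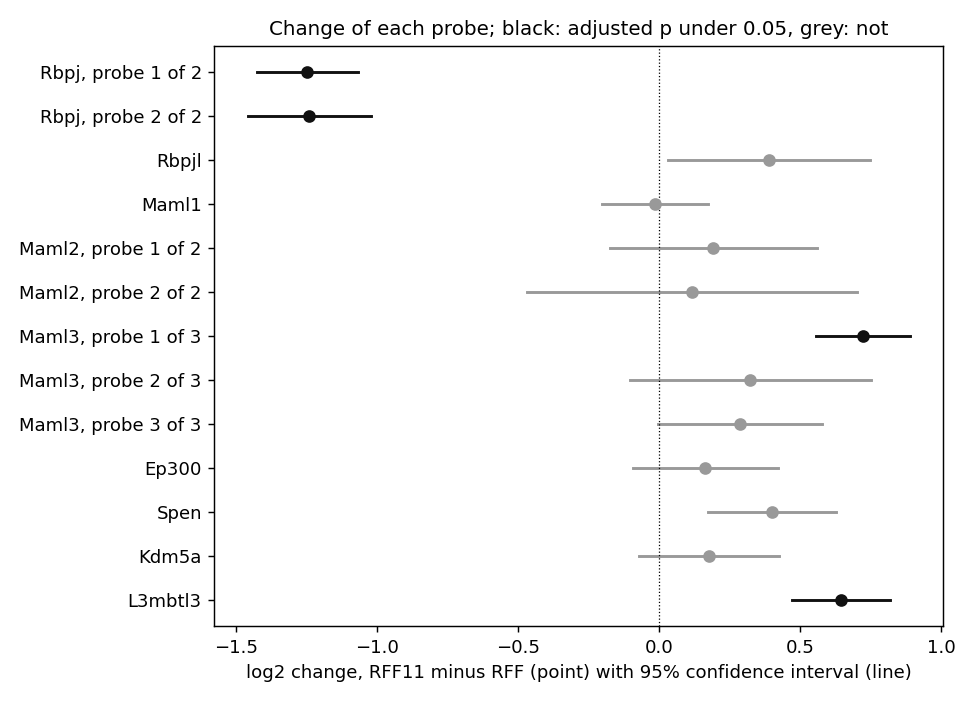
Change (log2, RFF11 minus RFF, horizontal axis) of each of the 13 probes as a point with its 95% confidence interval from limma, black where the adjusted p over all probes was under 0.05 and grey otherwise. Both Rbpj probes lie at -1.25 and -1.24, and of the 3 Maml3 probes the brightest lies at 0.72 and the others at 0.32 and 0.29.

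All 3 corepressors read higher on both RFF11 arrays than on either RFF array, as did 26.8% of all genes tested, and 1 of them passed as a rise, against 1.04% of all genes. L3mbtl3, whose product binds RBPJ and brings in the histone demethylase KDM1A, read -2.08 and -2.07 in RFF11 cells and -2.77 and -2.67 in RFF cells. That is 1.56-fold the RFF signal, rank 502 from the highest change, with processed signals of 340.0 and 345.6 against 201.5 and 223.4. With normexp its change was 0.51 and still passed (limma adjusted p = 0.0184). Spen, a large RNA-binding protein that ties RBPJ to histone deacetylase complexes, read 1.16 and 1.03 in RFF11 cells and 0.76 and 0.63 in RFF cells. Its change of 0.40 (SE 0.08, 95% confidence interval 0.17 to 0.63) missed the threshold (limma adjusted p = 0.0934). Its unadjusted p was 0.00782, and 24.1% of all genes tested had an unadjusted p under 0.05. Spen passed where the variance prior followed the signal level and was robust to outlying genes (adjusted p = 0.0281), a setting under which 1548 genes passed in place of 338. Kdm5a, a histone demethylase, read 0.42 and 0.28 in RFF11 cells and 0.25 and 0.09 in RFF cells. Its change of 0.18 did not pass (95% confidence interval -0.07 to 0.43, limma adjusted p = 0.319) and stood at 0.097 without RFF replicate 2.

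In all, 6 of the 9 genes were higher on both RFF11 arrays than on either RFF array, and 1 was lower. The share higher among all genes tested was 26.8%. The 6 include Rbpjl, which entered the test through the RFF11 arrays alone, so the filter favoured its place among them. Genotypes did not overlap for 59.1% of all genes in either direction, so a gene such as Ep300, Kdm5a or Rbpjl shared that property with most of the array.

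**Figure D3:**
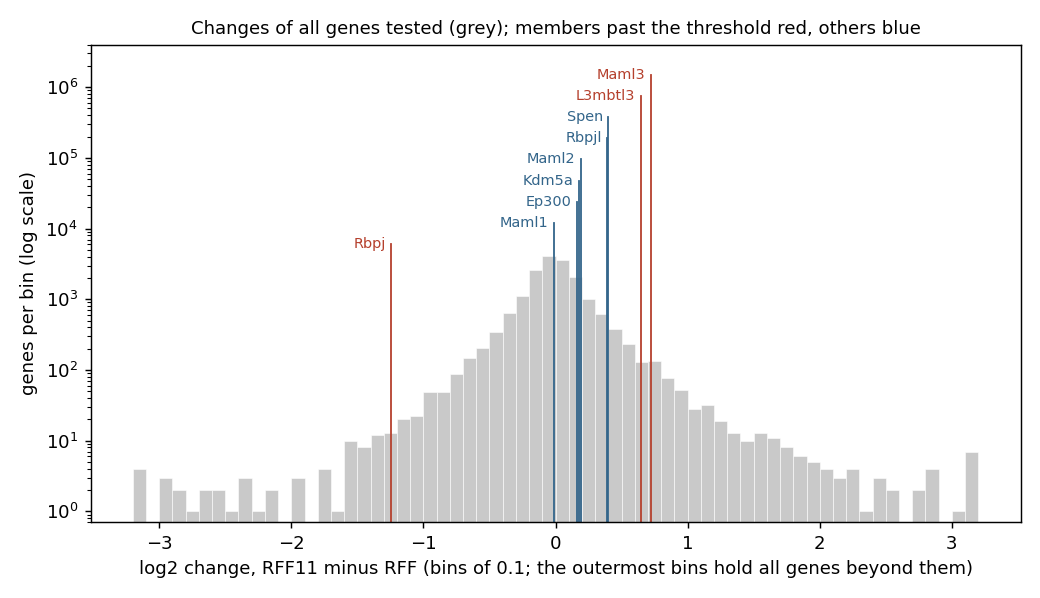
Number of genes (vertical axis, log scale) in each bin of 0.1 of the log2 change, RFF11 minus RFF, over the 17967 genes tested in grey, with a line at each of the 9 genes, red where it passed and blue where it did not. Line heights only separate the names; Rbpj lies at -1.25 in the lower tail, and L3mbtl3 (0.64) and Maml3 (0.72) lie above the others.

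Other partners of RBPJ and of the cleaved Notch receptor mostly did not pass. Of 34 such cofactors 31 entered the test, 1 rose, against 1.04% of all genes, 0 fell, against 0.84%, and 30 did not pass, with a median change of 0.04. The one that rose was Bend6, known in mouse neurons to bind RBPJ as a corepressor. Bend6 read -1.26 and -1.25 in RFF11 cells and -1.83 and -1.85 in RFF cells, a change of 0.58 (SE 0.05, limma adjusted p = 0.0379). The genotypes did not overlap, and the arrays of each genotype were close together. The call of Bend6 was lost, as for the family, when any 1 array was left out (changes of 0.57 to 0.59). Closest to passing was Tle1, a corepressor of the Groucho family, at 0.54 on its brightest probe (limma adjusted p = 0.0557). Of its dimmer probes, 1 stood at 0.55 and passed among single probes (adjusted p = 0.0455), and another at 0.04 did not (adjusted p = 0.677). The acetyltransferase Crebbp, closely related to Ep300, stood at -0.05, KDM1A's gene Kdm1a at 0.01, and the corepressor Ncor1 at 0.15, none of which passed.

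Further up the pathway, none of 20 Notch receptors, ligands, proteases and modifiers tested passed in limma, and the median change was -0.13. An unadjusted p under 0.05 was found for 10 (2 higher, 8 lower), against 24.1% of all genes. Of the 2 higher, Notch4 (0.35) was well above background on 0 of 2 RFF arrays and entered the test through the RFF11 arrays alone. Farthest from 0 among the 20 was the ligand Jag2, at -0.87 (limma adjusted p = 0.149). Its change was -0.36 with normexp and -1.11 to -0.63 with 1 array left out. Of 16 classical Notch targets tested, Gata3 rose (1.61, limma adjusted p = 0.0289) and was well above background on all 4 arrays. With the filter on all 4 arrays it was the 1 target called, where 247 of 17049 genes were called higher. Under the main filter 0 targets fell, against 0.84% of all genes. Hes5 passed too, at 1.23 (limma adjusted p = 0.0333), but entered the test through the RFF11 arrays alone, was well above background on 1 of 2 RFF arrays and stood at 0.50 with normexp. The median over the 16 was 0.17, with Hes5 and Esam among them. Esam (1.65, limma adjusted p = 0.105) also entered the test through the RFF11 arrays alone and was well above background on 0 of 2 RFF arrays. Hes1, Hey1, Nrarp and Dtx1 were on the array and did not enter the test.

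**Figure D4:**
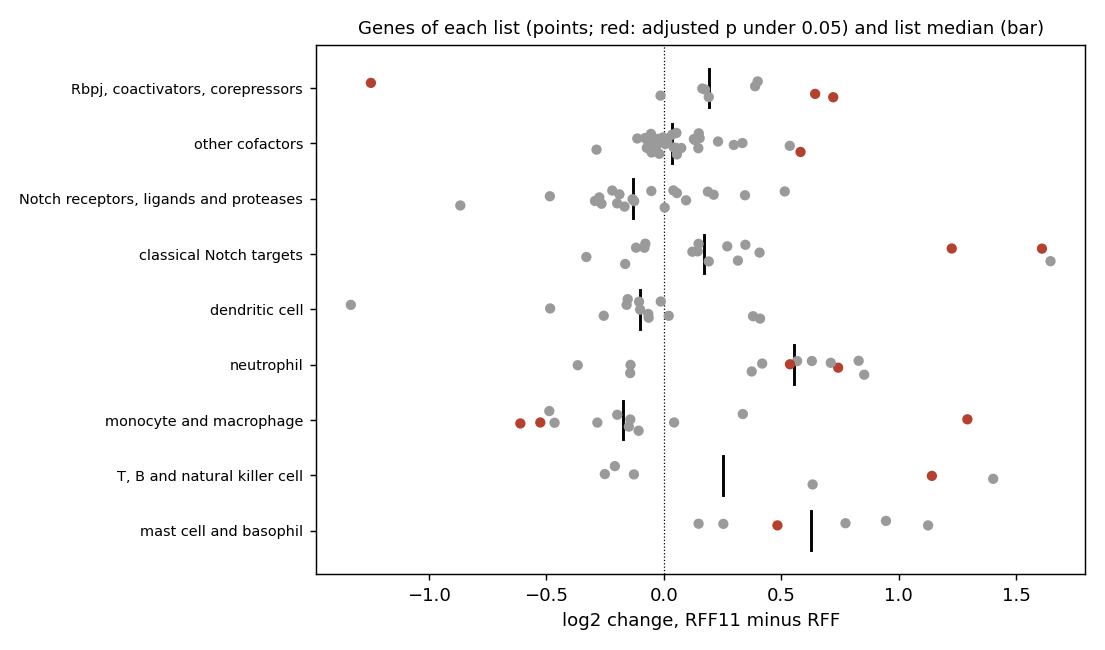
Change (log2, RFF11 minus RFF) of every tested gene of each list as a point, red where its adjusted p over all genes was under 0.05, with a bar at the list's median. Rbpj and its cofactors are in the top row with a median of 0.19, the other cofactors lie around 0.04, and the neutrophil and the mast cell and basophil markers lie around 0.55 and 0.63.

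Of the markers of other cell types, most did not pass, while their summed signals differed between the genotypes. The share called was higher in each of these lists than the 1.88% called among all genes. With 6 or 12 genes tested per list, a single call already exceeds that share. Summed over 13 neutrophil markers on the array, the signal was 55.4 and 48.7 times the 75th percentile in RFF11 cells and 33.3 and 38.4 times in RFF cells. The brighter S100a9 (0.85), S100a8 (0.83) and Mmp8 (-0.14) weigh most in that sum, and none of them passed. Of 12 tested, 2 (Mpo and Ngp) rose, with a median change of 0.55. Of the 12 changes 9 were above 0 and 3 below, those of Elane (-0.14), Mmp8 (-0.14) and Cebpe (-0.37). The 9 and the median include Prtn3 (0.37), which entered the test through the RFF11 arrays alone. The sum over 10 mast cell and basophil markers was 2.65 and 2.37 in RFF11 cells and 1.75 and 1.87 in RFF cells, with 1 of 6 tested, Hdc, higher. For 12 monocyte and macrophage markers it was 419.6 and 414.0 in RFF11 cells against 453.8 and 481.4 in RFF cells, with Marco higher and Fcgr1 and Trem2 lower. For 13 T, B and natural killer cell markers it was 6.60 and 7.03 in RFF11 cells and 7.74 and 7.60 in RFF cells, against a median change of 0.25 over the 6 tested. The brighter Nkg7 (-0.21) and Cd4 (-0.25) weigh most in that sum, while Klrb1c (1.14) rose and Cd3g (1.40) and Cd3d (0.63) were higher on both RFF11 arrays without passing. Cd79a, Ms4a1, Pax5, Cd8a, Gzma and Ncr1 did not enter the test. The dendritic cell markers summed to 1326 and 1228 in RFF11 cells and 1382 and 1334 in RFF cells, and none of them passed. Farthest from 0 among these was the lectin Cd209a, at 3.39 and 2.29 in RFF11 cells and 4.17 and 4.17 in RFF cells (change -1.33, limma adjusted p = 0.159), where the RFF11 arrays lay far apart. The calls of Hdc and Trem2 were lost with quantile normalization (limma adjusted p = 0.0511 and 0.0518), and that of Klrb1c with the mean of its probes (adjusted p = 0.0754). The part of these shifts in the changes of Maml3, L3mbtl3 and Bend6 was not tested.

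The 3 named genes below came closest to Rbpj in pattern, measured as the root mean square difference of the levels over 4 arrays after each gene's own mean was taken off, among 12748 named genes. They were Chst7, a carbohydrate sulfotransferase (0.031), Palld, an actin-binding protein (0.043), and Dscaml1, a cell adhesion molecule (0.064). Chst7 read -0.49 and -0.41 in RFF11 cells and 0.80 and 0.80 in RFF cells. With 4 arrays in 2 genotypes, the measure reflects little beyond the size of the change, which was -1.26 for Chst7, -1.20 for Palld and -1.34 for Dscaml1.

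**Figure D5:**
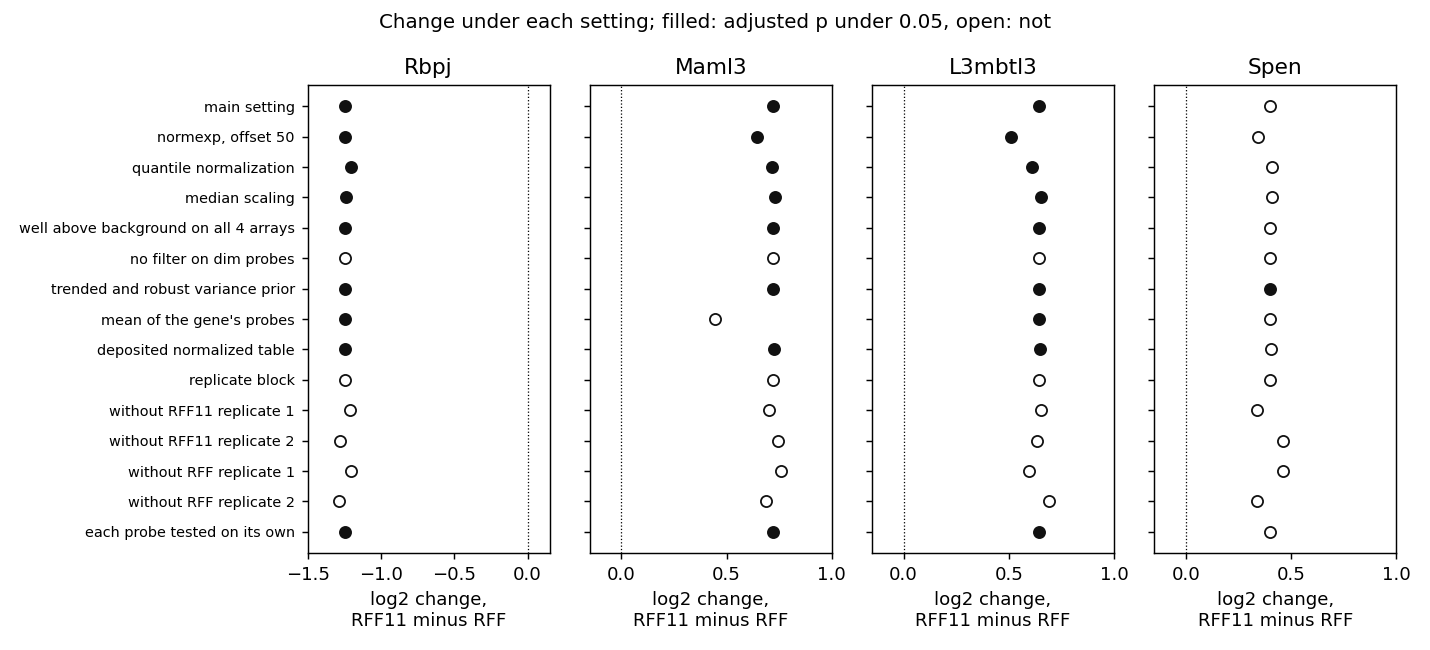
Change (log2, RFF11 minus RFF, horizontal axis) of Rbpj, Maml3, L3mbtl3 and Spen under each setting (rows), filled where the adjusted p was under 0.05 and open where it was not. The changes of Rbpj stay between -1.29 and -1.21 in every row while the fill is lost without the filter, with the replicate number in the fit and without any 1 array; Maml3 drops to 0.44 for the mean of its probes.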

How the data were processed

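Per the labels, total RNA pooled from 4 mice per genotype was labelled with Cy3 from 150 ng and hybridised to one-colour arrays. Spot intensity was extracted with Agilent Feature Extraction 10.7.1.1 per the file headers and the submitters' processing notes, background-subtracted and detrended within each array but not scaled between arrays. How the authors normalised the deposited table of log2 values is not stated in those sources. It follows the scanner's log2 values centred on each probe's median over the arrays (r of at least 0.99995 over 39429 probes, same direction, column medians of -0.0339, 0.0202, 0.0528 and -0.0305), so its scale, centring and direction are known, and it served as an alternative only. The number of columns of other samples was 0. The number of saturated spots was 0, and 127 to 176 outlier spots per array were left out, none of them a spot of Rbpj or its cofactors.

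Log2 signal was reduced by each array's 75th percentile over gene spots and averaged per probe. Probes were named through accessions in RefSeq annotation of GRCm38.p6, used for names alone as the arrays are annotated on mm9: 26055 of 39429 probes received 1 symbol, 0 several and 13374 none. A probe was kept if it was measured on all 4 arrays and, in 1 genotype or both, well above background on each array. The brightest probe stood for its gene. The test was limma 3.58.1 in R 4.3.3, lmFit followed by eBayes, with Benjamini-Hochberg adjustment over all genes and a threshold of 0.05. The procedure was tested on simulated data. Python 3.11.15, pandas 2.3.3, numpy 2.4.6 and matplotlib 3.10.9 served for reading, motif search and drawing. The files hold no mean spot signal, so normexp used the median spot and background signals, with an offset of 50.

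The genes and lists were chosen with earlier results of these data known. Named genes were all 9 of the family, those past the threshold in each further list or else the one farthest from 0, Itgax, and the 3 closest to Rbpj in pattern. Crebbp, Kdm1a, Ncor1, Tle1, Notch4, Esam, S100a8, S100a9, Elane, Mmp8, Cebpe, Prtn3, Nkg7, Cd4, Cd3g and Cd3d lie outside this rule. So do the dendritic cell markers other than Itgax, the genes said not to enter the test and those named under other settings. All of these were chosen after their values were seen. The small number of arrays limits precision. Alternatives covered background, scaling, filter, variance prior, choice of probe, the deposited table, each array left out and the replicate number as a block. Probe sequences and their place on the transcripts were not used here.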

Additional observations from a re-analysis of the deposited data

How the results depend on the processing

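Rbpj, Maml3 and L3mbtl3 kept direction and call under normexp, quantile and median scaling and a filter on all 4 arrays. They also did so with the trended and robust variance prior and the deposited table. Among single probes, those of Rbpj and L3mbtl3 and the brightest of Maml3 passed. The dimmer Maml3 probes did not (limma adjusted p = 0.3 and 0.215). With the mean of a gene's probes Maml3 stood at 0.44 and did not pass (limma adjusted p = 0.0642), while Rbpj and L3mbtl3 did. Without a filter on dim probes the changes of Rbpj, Maml3 and L3mbtl3 were -1.25, 0.72 and 0.64. There were then 0 limma calls over all 32494 genes tested (3654 at an unadjusted p under 0.05), and so 0 among the family, the other cofactors and the targets. The replicate numbers are not said to pair the arrays, and same-numbered arrays deviated with r = -0.05 across genes. With the replicate number as a block the changes were again -1.25, 0.72 and 0.64 (adjusted p = 0.101, 0.101 and 0.107), and 0 genes passed in all (3677 at an unadjusted p under 0.05), 0 in the family, 0 cofactors and 0 targets. A block leaves 1 degree of freedom fewer. Leaving out each array in turn, with the same probes and the lone array taken to vary like the other genotype, gave 0 to 1 genes in all (ENSMUST00000110109, higher, without either RFF array; 2977 to 3505 genes at an unadjusted p under 0.05), 0 in the family, 0 cofactors, 0 receptors and ligands and 0 targets. Changes then ran from -1.29 to -1.21 for Rbpj, 0.69 to 0.76 for Maml3, 0.60 to 0.69 for L3mbtl3 and -0.071 to 0.044 for Maml1, whose sign also turned with normexp (0.016).

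Counts over all genes were 894 with normexp (425 higher, 469 lower; 292 shared with the 338) and 1548 with the trended and robust prior (694 higher, 854 lower; 318 shared), where Spen passed at 0.40. Cofactors called numbered 3 under either, Bend6 and Tle1 higher and Rbbp8 lower, and 2, Bend6 and Tle1, with the filter on all 4 arrays. Receptors and proteases called numbered 1 with normexp (Furin, lower) and 4 with the trended prior (Aph1b, Furin, Psen2 and Psenen, all lower). Targets called numbered 3 with normexp, 6 with the trended prior and 1, Gata3, with the filter on all 4 arrays, which Hes5 and Rbpjl did not pass. Dim signal limits Rbpjl and the dimmer probes of Maml2 and Maml3, which were well above background on 1 of 2 RFF arrays, apart from the second Maml3 probe. The cause of the lost calls was not tested.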
